A study of Mus musculus with 6 samples.

Results

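The 9 genes described here encode 5 bone morphogenetic protein (BMP) ligands, Bmp2, Bmp4, Bmp5, Bmp6 and Bmp7, and 4 secreted proteins that bind BMPs, Bmper, Chrdl1, Grem1 and Nog. They were taken by symbol from the 30406 genes that the files of all 6 single-nucleus RNA sequencing (snRNAseq) libraries list in common. The libraries were made from nuclei of tibial periosteum of wild-type mice labelled C57BL6 (C57BL/6ScNj in the study's methods), 12 weeks old and of both sexes mixed. In 2 libraries the periosteum was uninjured. The other 4 libraries hold periosteum and hematoma of tibias that had been fractured in open surgery without fixation, 2 of them taken 3 days after the fracture, 1 after 5 days and 1 after 7 days. Each uninjured library pooled tibias of 4 mice, with the bone marrow flushed out, and each fracture library pooled 4 to 9 mice, so that no value belongs to a single animal. The questions asked of these data were which periosteal populations hold transcripts of each ligand and antagonist, and how their levels differ after fracture.

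BMPs are secreted dimers of the TGF-beta family. They signal through serine/threonine kinase receptors that phosphorylate SMAD transcription factors, and they are known for inducing cartilage and bone, with BMP2 needed for fracture repair to begin. Noggin and gremlin hold ligands away from their receptors. BMPER and chordin-like 1 carry chordin-type cysteine-rich repeats, and BMPER has been described both as an inhibitor and as a promoter of BMP signalling.

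The 6 libraries held 13551 barcodes, 655 to 4712 per library, with 1499281 to 29796296 unique molecular identifiers (UMIs) per library, and each pair of libraries shared 0 to 7 barcodes. After limits on gene number and on mitochondrial and ribosomal UMIs and the removal of myogenic clusters, 6376 nuclei remained. They were clustered without the 9 genes or other BMP pathway genes among the features, and clusters were called "-like" from marker genes. All markers of 12 of 13 named populations were higher inside than outside, with Hsd11b1 in fibroblast-like nuclei as the exception, and none was at 0. The same markers gave the names in the same nuclei, so this is no separate check of them. The largest cluster named fibroblast-like, led by Brinp1 and Fgf7, scored 2.92 for fibroblast markers and 2.65 for markers of injury-induced fibrogenic cells (IIFCs), so its name is a close call. The tendon-like cluster of 260 nuclei, not counted as stromal, was closer still, at 3.26 for tendon and 3.21 for IIFC markers. An IIFC-like cluster of 201 nuclei led by Gm42418, with a median of 644 UMIs, scored 2.22 for IIFC and 1.95 for chondrocyte markers. Stromal nuclei below are the 2737 nuclei called chondrocyte-like, osteoblast-like, IIFC-like, fibroblast-like or SSPC-like (skeletal stem/progenitor cells). The uninjured libraries had 126 and 341 of them, the day 3 libraries 125 and 254, day 5 had 1086 and day 7 had 805.

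Levels are given as CPM, the UMIs of a gene scaled to the total UMIs of the nuclei concerned, with exact Poisson 95% intervals that cover counting error only. Reads in introns were counted, and the genes differ in length from 1.695 kb (Nog, a single exon) to 262 kb (Bmper, 1.84% exonic), so levels of different genes are compared only as CPM per kilobase of gene span. On that scale, over stromal nuclei of all libraries together, Bmp5 came first with 2.51 CPM per kb and Bmper next with 2.04. Bmp4 followed with 1.51, Bmp6 with 0.884, Chrdl1 with 0.657 and Bmp2 with 0.628. Nog was at 0.163 CPM per kb on 3 UMIs, Grem1 at 0.0517 on 7 UMIs and Bmp7 at 0.0383 on 30 UMIs. This pooled order did not hold in each library. Bmp5 was above Bmper at day 5 only, at 3.48 against 1.65 CPM per kb. In both uninjured libraries, both day 3 libraries and at day 7 Bmper was above Bmp5. Bmp4 came first in the uninjured libraries, at 3.66 and 4.36 CPM per kb. In endothelial-like nuclei Bmp4 had 14.2 CPM per kb, the highest per-length level of any of the 9 genes there, with Bmp6 next at 1.85.

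The populations divided the genes into those with most of their UMIs in stromal nuclei (Bmp5 with 82.5%, Bmper with 92.8% and Chrdl1 with 72.8%), those shared by endothelial-like nuclei and part of the stroma (Bmp4, Bmp6) and those with few UMIs anywhere (Bmp2 with 144 UMIs, Bmp7 with 45, Grem1 with 19 and Nog with 4 over all nuclei). The levels by population are descriptions, with no test, since the populations were defined on the same nuclei. Levels in immune-like nuclei, which should make little of these genes, gauge free RNA and over all libraries ran from 0 for Grem1 and Nog to 8.52 CPM for Bmp5 and 22.6 CPM for Bmper.

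**Figure D1:**
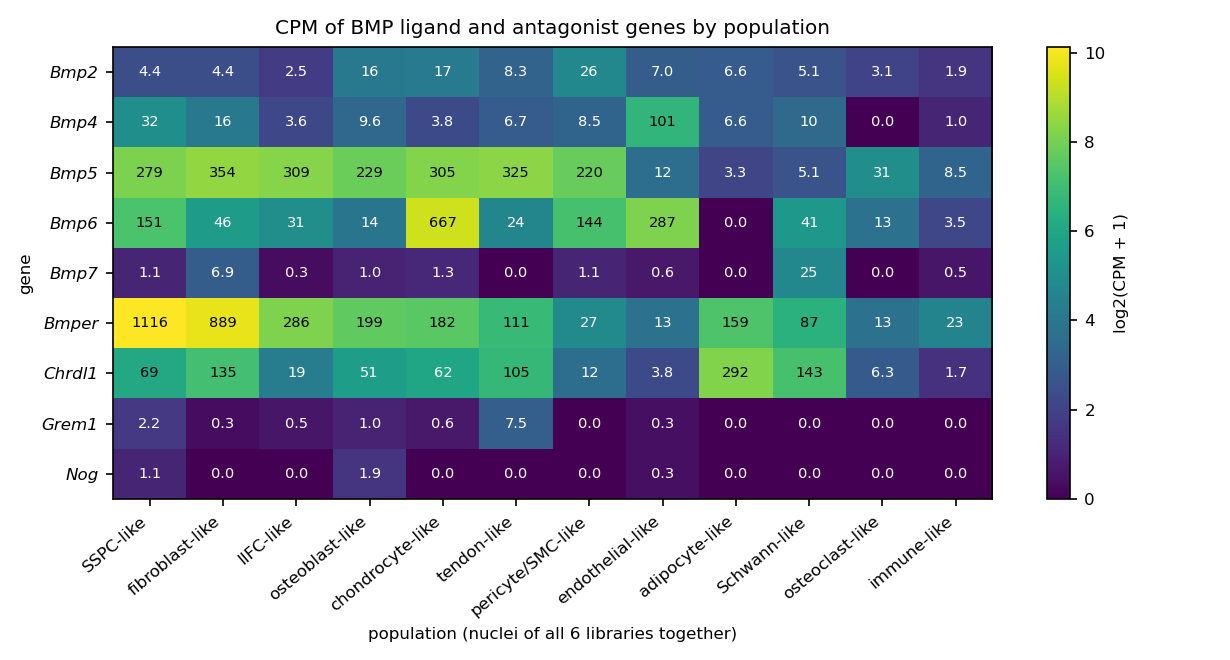
Level of each of the 9 genes (rows) in 12 populations (columns), nuclei of all 6 libraries together, with the CPM printed in each cell and the colour giving log2(CPM + 1). Rows are to be read along the populations and not against each other, since genes differ in length; Bmper reached 1116 CPM in SSPC-like nuclei, Bmp6 667 CPM in chondrocyte-like nuclei and Bmp4 101 CPM in endothelial-like nuclei.

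For the test of day 3 against uninjured, UMIs were summed per library and compared by edgeR's quasi-likelihood test over all genes that passed its filter on low counts, with Benjamini-Hochberg adjustment. The 2 day 3 libraries stood against the 2 uninjured libraries, and days 5 and 7, with 1 library each, are values without a test. In stromal nuclei 897 of 9678 genes tested were called, which is 9.27% (4.01% higher and 5.26% lower). Of the 9 genes, 5 passed the filter there and 2 were called, Bmp6 and Chrdl1, both lower at day 3. In endothelial-like nuclei 253 of 6795 genes tested were called, or 3.72% (1.69% higher and 2.03% lower), and of the 3 genes of the family that passed the filter Bmp4 was called lower and Bmper higher. The make-up of the stroma moved with time: IIFC-like nuclei were 7.94% and 2.64% of stromal nuclei before fracture, 48.8% and 39.8% in the day 3 libraries, 40.2% on day 5 and 37.9% on day 7. Chondrocyte-like nuclei made up 1.59% and 1.47% of them uninjured, 1.60% and 2.76% at day 3, then 15.3% (day 5) and 30.7% (day 7).

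Bmp5 (ENSMUSG00000032179, chr9:75775364-75900310 of GRCm38, plus strand) was a ligand of the whole stroma. Over all libraries it stood at 354 CPM in fibroblast-like, 325 in tendon-like, 309 in IIFC-like and 305 in chondrocyte-like nuclei, with SSPC-like nuclei at 279, osteoblast-like at 229 and pericyte/SMC-like at 220. The Poisson intervals of the IIFC-like (291 to 327), chondrocyte-like (278 to 333), tendon-like (294 to 359) and SSPC-like (246 to 316) levels overlapped, so their order is not resolved. Osteoclast-like nuclei had 31.4 CPM, endothelial-like 11.8 and immune-like 8.52. After every nucleus was thinned to 500 UMIs, 10.1% of stromal nuclei (275 of 2727) and 0.763% of immune-like nuclei (12 of 1573) kept a Bmp5 UMI. The shares before thinning were 32.7% and 2.86%, at median depths of 2555 and 2136.5 UMIs per nucleus.

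In stromal nuclei Bmp5 had 30.6 CPM in uninjured replicate 1 and 209 in uninjured replicate 2, then 245 and 242 at day 3, then 435 (day 5) and 136 (day 7). Both day 3 values lay above both uninjured values, but the uninjured libraries were further from each other than the second of them was from day 3. The log2 fold change of +0.88 (SE 0.60) had an adjusted p of 0.452 in edgeR's test. Without uninjured replicate 2 the log2 difference was +2.95 with an adjusted p of 0.0332, so this value rests on which uninjured library is used. At day 5 each stromal population except the osteoblast-like one was above 400 CPM, from 406 in chondrocyte-like to 577 in SSPC-like nuclei, and osteoblast-like nuclei had 248. In day 7 nuclei all 5 stromal populations lay between 40.5 and 160 CPM.

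Bmp6 (ENSMUSG00000039004, chr13:38345107-38500302, plus strand) had separate endothelial and cartilage sources. Chondrocyte-like nuclei held 39.3% of its UMIs at 667 CPM and endothelial-like nuclei 33.5% at 287 CPM. Next came SSPC-like nuclei with 151 CPM and pericyte/SMC-like nuclei with 144, and the intervals of these 2 overlapped (127 to 178 and 120 to 170). IIFC-like and osteoblast-like nuclei had 31.4 and 14.3 CPM. Among endothelial-like nuclei the cluster led by Gja5 and Sema3g, genes of arterial endothelium, had 1101 CPM, against 206 in the Vwf-led, 164 in the Mmrn1-led (lymphatic genes) and 101 in the Adgrl4-led cluster. After thinning, 13.1% of chondrocyte-like, 6.05% of endothelial-like and 0.381% of immune-like nuclei kept a Bmp6 UMI (30.8%, 16.0% and 1.21% before thinning).

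Stromal Bmp6 measured 140 and 118 CPM before fracture, 30.0 and 55.1 in the day 3 libraries, then 133 (day 5) and 286 (day 7). The day 3 pair lay below the uninjured pair with no overlap. The fall at day 3 was 3.00-fold (log2 fold change -1.58, SE 0.38, edgeR adjusted p = 0.0342). The call was lost, with an adjusted p of 0.0770, under DESeq2, and also when any of 3 of the 4 libraries was left out. Within fibroblast-like nuclei alone, where the 4 levels were 146, 75.4, 54.4 and 42.0 CPM in the same order, the log2 difference was -1.22 with an adjusted p of 0.247. The 2 fibroblast-like clusters differed: the Ntng1-led one had 228 CPM (183 to 280) over all libraries and the Brinp1-led one 23.1 (18.2 to 29.0). In the Brinp1-led cluster the 4 levels overlapped between groups, at 26.6 and 18.0 CPM uninjured and 21.3 and 42.0 at day 3. The Ntng1-led cluster gave 37 of 83 and 37 of 175 fibroblast-like nuclei uninjured and 4 of 48 and 6 of 104 at day 3, and the part of that shift in the stromal difference was not tested. In SSPC-like nuclei Bmp6 had 119 and 265 CPM uninjured and 60.1 and 14.6 at day 3, the latter on 2 UMIs each. At day 5, 634 of the 715 stromal Bmp6 UMIs came from chondrocyte-like nuclei, and at day 7 411 of 458. The level inside chondrocyte-like nuclei was 666 CPM at day 5 and 715 at day 7, while IIFC-like nuclei stood at 13.7 and 44.4.

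In endothelial-like nuclei Bmp6 had 233 and 523 CPM uninjured, 43.3 and 167 at day 3, then 83.2 (day 5) and 177 (day 7). The day 3 values were both lower than the uninjured values. The log2 fold change was -1.75 (SE 0.49) with an edgeR adjusted p of 0.0951, and DESeq2 gave -1.87 with 0.0491. The Gja5-led cluster made up 18.3% and 21.4% of endothelial-like nuclei uninjured and 10.3% and 8.06% at day 3. Inside that cluster Bmp6 had 843 and 1446 CPM uninjured, 0 and 925 at day 3 (4 and 5 nuclei), then 488 (day 5) and 784 (day 7). The part of this shift in the make-up in the endothelial difference was not tested.

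Bmp4 (ENSMUSG00000021835, chr14:46383520-46390669, minus strand) came mostly from endothelial-like nuclei before fracture, which held 59 of 65 and 210 of 275 of its UMIs in the uninjured libraries. At day 5 they held 22 of 72 and stromal nuclei 44, and at day 7 they held 4 of 10 and stromal nuclei 5. Over all libraries endothelial-like nuclei held 67.9% of its UMIs at 101 CPM (90.5 to 113), SSPC-like nuclei had 31.7 CPM (21.3 to 45.6) and fibroblast-like nuclei 16.2 CPM (12.3 to 20.9). The Vwf-led cluster, with markers of venous endothelium such as Selp, had 146 CPM and the Gja5-led cluster 118, with overlapping intervals (126 to 169 and 87.8 to 155), and the Adgrl4-led cluster had 49.7. After thinning, 3.92% of endothelial-like and 0.127% of immune-like nuclei kept a Bmp4 UMI, and the shares before thinning were 17.5% and 0.381%.

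Endothelial-like Bmp4 stood at 140 and 176 CPM before fracture, 10.8 and 45.2 in the day 3 libraries, 27.3 on day 5 and 29.5 on day 7. All 4 libraries made after fracture were below both uninjured libraries. At day 3 Bmp4 fell 4.80-fold in edgeR's test (log2 fold change -2.26, SE 0.46, adjusted p = 0.0313). The day 3 counts were 1 and 22 UMIs from 39 and 62 nuclei, and leaving out either day 3 library took the adjusted p above the threshold, to 0.0984 without replicate 1 and 0.105 without replicate 2. In the Vwf-led cluster, whose share of endothelial-like nuclei was 29.1% and 33.9% uninjured and 25.6% and 37.1% at day 3, the levels were 162 and 219 CPM uninjured and 0 and 57.3 at day 3. The Adgrl4-led cluster, which had less Bmp4, went from 41.3% and 33.5% of endothelial-like nuclei uninjured to 59.0% and 48.4% at day 3. The Gja5-led cluster went from 18.3% and 21.4% to 10.3% and 8.06%. The part of this shift in the make-up in the endothelial Bmp4 difference was not tested.

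In stromal nuclei Bmp4 had 26.2 and 31.2 CPM uninjured, 2.50 and 8.51 at day 3, then 8.18 (day 5) and 3.13 (day 7). These values too were lower in every library after fracture than in both uninjured ones. The log2 fold change at day 3 was -2.21 (SE 0.66) with an adjusted p of 0.0720 in edgeR's test, which missed the threshold. Within SSPC-like nuclei the values were 47.6 and 32.1 CPM uninjured, 30.1 and 29.2 at day 3 and 40.3 at day 5, on 1 to 12 UMIs each, and 0 UMIs in the 60 nuclei of day 7. SSPC-like nuclei made up 19.8% and 22.6% of stromal nuclei uninjured and 6.40% and 6.30% at day 3. The summed level of the endothelial marker list in stromal nuclei moved the same way, at 332 and 202 CPM uninjured and 27.5 and 47.1 at day 3 (2 of its 7 genes at 0 in day 3 replicate 1 and none in the other 3 libraries), and that of the immune list the other way, at 17.5 and 16.3 CPM uninjured and 165 and 582 at day 3. The myogenic list also moved the same way, at 594 and 627 CPM in stromal nuclei uninjured and 350 and 362 at day 3. In uninjured replicate 1 and in day 3 replicate 1, 1 of its 8 genes was at 0. Myogenic-like nuclei held both Bmp4 and Bmp6, as given under the other observations below. The part of RNA from other cells in the stromal levels of Bmp4 and Bmp6 was not tested.

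**Figure D2:**
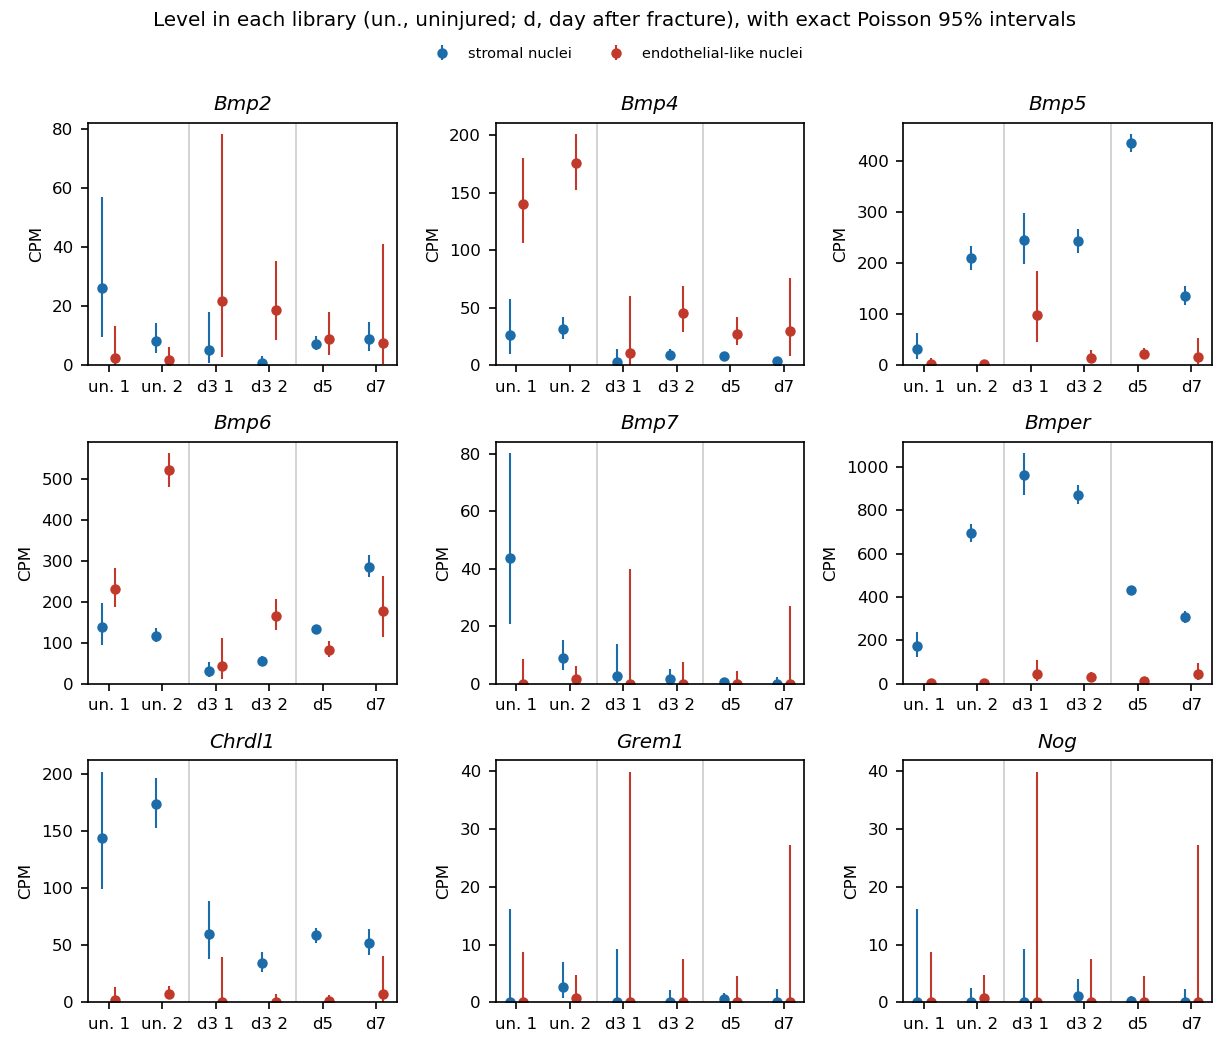
CPM (linear axis) of each gene in stromal nuclei (blue) and endothelial-like nuclei (red) of each library, with exact Poisson 95% intervals as bars; un. 1 and un. 2 are the uninjured libraries, d3 1 and d3 2 those of day 3, d5 and d7 the single libraries of days 5 and 7. Endothelial-like Bmp4 is at 140 and 176 CPM before fracture and at 10.8 to 45.2 CPM after it, and stromal Bmper is at 175 and 694 CPM in the uninjured libraries and at 962 and 871 CPM at day 3.

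Bmp4 and Bmp6 were the ligands that edgeR called lower in all nuclei together and also inside 1 compartment. That compartment was endothelial-like nuclei for Bmp4 and stromal nuclei for Bmp6. In the other compartment the log2 fold change was also negative and missed the threshold, at -2.21 for stromal Bmp4 and -1.75 for endothelial-like Bmp6. A difference between the compartments was called for neither gene, as given below for the interaction test. Their RefSeq promoters (GRCm38.p6, 250 bases before to 50 after the annotated start) are shown because both genes were called lower at day 3 over all nuclei. RefSeq promoters were found for 5 of the 9 genes, and not for Bmp2, Bmp7, Nog and Chrdl1. The Bmp4 window is chr14:46390620-46390919 on the minus strand and the Bmp6 window chr13:38345466-38345765 on the plus strand. The Bmp6 window follows the RefSeq start and lies inside the gene span given above, which begins further upstream in GENCODE, so it is not the promoter of that upstream start. Capitals mark GGGCGG, a GC box, on either strand, and CACGTG, an E-box.
Bmp4: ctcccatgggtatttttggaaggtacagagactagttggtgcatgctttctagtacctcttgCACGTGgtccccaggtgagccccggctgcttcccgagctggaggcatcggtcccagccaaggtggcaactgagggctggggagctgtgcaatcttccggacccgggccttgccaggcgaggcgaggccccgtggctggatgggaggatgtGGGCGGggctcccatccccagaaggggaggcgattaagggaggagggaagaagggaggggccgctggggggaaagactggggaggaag
Bmp6: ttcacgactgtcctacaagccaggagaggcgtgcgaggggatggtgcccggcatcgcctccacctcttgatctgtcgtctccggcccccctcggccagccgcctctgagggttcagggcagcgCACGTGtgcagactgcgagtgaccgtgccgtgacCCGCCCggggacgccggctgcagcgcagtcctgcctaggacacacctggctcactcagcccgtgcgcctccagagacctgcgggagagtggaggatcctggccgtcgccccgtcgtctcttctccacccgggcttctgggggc
Each window holds 1 GGGCGG and 1 CACGTG, and of all 32851 promoter windows of the same length 35.7% hold the first and 7.15% the second. The other sequences searched, on both strands, were the GC-rich letters GGCGCC, the TATA box TATAAA, the GATA factor motif GATAAG, the ETS factor motifs CAGGAAG and also CCGGAAGT, the short ETS core GGAA that both of these contain, the letters CGTGAC, the cAMP response element TGACGTCA, the AP-1 motif TGAGTCA, the RBPJ motif GTGGGAA, which holds the ETS core too, and the SMAD palindrome GTCTAGAC. CGTGAC was in the Bmp6 window (8.22% of all windows) and GGAA in the Bmp4 window (96.0%), and the other 9 were in neither. A match is a description of letters and not of binding.

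Bmp2 (ENSMUSG00000027358, chr2:133552159-133562885, plus strand) had few UMIs in every population. It was highest in pericyte/SMC-like nuclei at 25.5 CPM (16.4 to 38.0, 24 UMIs). Its level per length there was 2.38 CPM per kb, beside Bmp5 at 1.76, Bmp4 at 1.19 and Bmp6 at 0.925. Levels per length are given without intervals, and on 24 UMIs the order of Bmp2 against Bmp5 and Bmp4 is not resolved. After pericyte/SMC-like nuclei came chondrocyte-like nuclei at 17.1 CPM (11.3 to 24.9) and osteoblast-like nuclei at 16.2 (9.47 to 26.0), and the intervals of these 3 populations overlapped. IIFC-like and SSPC-like nuclei had 2.46 and 4.38 CPM, and immune-like nuclei 1.91. In stromal nuclei the 6 libraries had 26.2 and 8.13 CPM uninjured, 5.00 and 0.568 at day 3, then 7.07 (day 5) and 8.75 (day 7), on 1 to 38 UMIs, and the gene did not pass the filter for the test. In endothelial-like nuclei the order was the opposite: 2.37 and 1.67 CPM uninjured, 21.6 and 18.5 at day 3, then 8.69 (day 5) and 7.37 (day 7). The library values of the groups did not overlap in either set of nuclei, but DESeq2 did not call the stromal difference (log2 fold change -2.84, adjusted p = 0.430). All 11 endothelial Bmp2 UMIs of day 3 lay in the Adgrl4-led cluster, which had 0 Bmp2 UMIs in both uninjured libraries and 34.9 and 40.1 CPM at day 3.

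Bmp7 (ENSMUSG00000008999, chr2:172868012-172940321, minus strand) gave 45 UMIs in all nuclei, 25 of them in fibroblast-like nuclei and 5 in Schwann-like nuclei of uninjured replicate 2. Within fibroblast-like nuclei, 18 of the 25 UMIs came from the 116 nuclei of the cluster led by Ntng1 and Luzp2, at 45.1 CPM (26.7 to 71.2), against 2.16 CPM (0.868 to 4.45) in the Brinp1-led cluster. In stromal nuclei the levels were 43.7 and 8.80 CPM uninjured, 2.50 and 1.70 at day 3, 0.558 at day 5 and 0 of 1599466 UMIs at day 7, where 3 UMIs would be 1.88 CPM and the Poisson interval reaches 2.31 CPM. All 4 libraries after fracture were lower than both uninjured ones. The gene did not pass the filter in stromal or endothelial-like nuclei. The number of nuclei in the Ntng1-led cluster moved with these levels, as given for Bmp6, and its part was not tested.

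Bmper (ENSMUSG00000031963, chr9:23223076-23485200, plus strand), a BMP-binding protein with chordin-type repeats, gave the most UMIs of the 9 genes, 6250, of which 92.8% were in stromal nuclei. SSPC-like nuclei had 1116 CPM (1049 to 1187), fibroblast-like nuclei 889 (858 to 920), IIFC-like nuclei 286 (269 to 304), osteoblast-like nuclei 199 (173 to 228) and chondrocyte-like nuclei 182 (162 to 205). This order over all libraries together did not hold in each library. In both uninjured libraries fibroblast-like nuclei, at 228 and 915 CPM, were above SSPC-like nuclei, at 23.8 and 417, and at day 5 IIFC-like nuclei, at 164 CPM, were below osteoblast-like nuclei at 239 and chondrocyte-like nuclei at 180. Adipocyte-like nuclei had 159 CPM and tendon-like nuclei 111. Thinned to 500 UMIs, 31.1% of SSPC-like, 26.7% of fibroblast-like, 9.17% of IIFC-like and 1.27% of immune-like nuclei kept a Bmper UMI, and before thinning the shares were 51.2%, 56.1%, 32.7% and 6.15%.

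Stromal Bmper was at 175 and 694 CPM uninjured, 962 and 871 at day 3, then 433 (day 5) and 305 (day 7). The day 3 libraries were the highest, and the uninjured libraries lay far from each other. The log2 fold change at day 3 was +1.05 (SE 0.55) with an edgeR adjusted p of 0.311. Within SSPC-like nuclei the series ran 23.8 and 417 CPM uninjured, 2675 and 1542 at day 3, then 2008 (day 5) and 817 (day 7), from 25, 77, 8, 16, 56 and 60 nuclei. In IIFC-like nuclei Bmper had 648 and 650 CPM at day 3, then 164 (day 5) and 170 (day 7), with 0 and 6 UMIs in the 10 and 9 IIFC-like nuclei of the uninjured libraries. In the Brinp1-led fibroblast-like cluster it had 479 and 1157 CPM uninjured, 1215 and 1201 at day 3, then 878 (day 5) and 631 (day 7), so that from day 3 on the level in each of these 3 groups of nuclei was lower at day 7 than at day 3.

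Endothelial-like Bmper was at 2.37 and 2.51 CPM uninjured (1 and 3 UMIs) and at 43.3 and 32.9 CPM at day 3 (4 and 16 UMIs), then at 12.4 at day 5 and 44.2 at day 7. The day 3 pair lay above the uninjured pair, a 12.5-fold rise (log2 fold change +3.65, SE 0.82, edgeR adjusted p = 0.0452). The call was lost under 6 of 10 alternatives, DESeq2 among them with an adjusted p of 0.152, and no call could be made under 2 others, where the gene did not pass the filter. Immune-like nuclei of the same libraries had 0 and 32.3 CPM of Bmper uninjured and 0 and 21.5 at day 3. The immune marker list summed to 4.75 and 134 CPM in endothelial-like nuclei uninjured and to 173 and 284 at day 3. Of the stromal lists, that of osteoblasts rose there, from 49.8 and 56.8 CPM uninjured to 281 and 245 at day 3. That of chondrocytes went the other way, from 112 and 44.3 CPM to 10.8 and 32.9. The part of free RNA in the Bmper level was not tested.

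Chrdl1 (ENSMUSG00000031283, chrX:143285674-143394262, minus strand), chordin-like 1, was highest outside the stroma over all libraries together, at 292 CPM (234 to 360) in adipocyte-like nuclei and 143 (94.9 to 206) in Schwann-like nuclei. Fibroblast-like nuclei followed at 135 CPM (123 to 147) and tendon-like nuclei at 105 (87.3 to 125), with overlapping intervals for Schwann-like, fibroblast-like and tendon-like nuclei. These pooled levels rest on unlike mixes of libraries. The uninjured libraries gave 30889 and 219978 of 301180 adipocyte-like UMIs and 40986 and 120053 of 196104 Schwann-like UMIs. They gave 170766 and 914846 of 3643055 fibroblast-like UMIs, and the fibroblast-like levels by library are given below. SSPC-like nuclei had 69.0 CPM, chondrocyte-like 62.0, osteoblast-like 50.7 and IIFC-like 18.9. Because adipocyte-like nuclei were only 42, fibroblast-like nuclei held the largest share of its UMIs, 46.2%. Of the 2 fibroblast-like clusters the Ntng1-led one had 245 CPM (199 to 299) and the Brinp1-led one 121 (109 to 134).

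Stromal Chrdl1 was at 144 and 174 CPM uninjured, 60.0 and 34.6 at day 3, then 58.8 (day 5) and 51.9 (day 7). Every library after fracture was below both uninjured libraries. At day 3 it fell 3.57-fold in edgeR's test (log2 fold change -1.83, SE 0.44, adjusted p = 0.0326), and DESeq2 gave -1.79 with 0.0419. Leaving out uninjured replicate 2 or day 3 replicate 2 took the adjusted p above the threshold, as did the restriction to fibroblast-like nuclei, where the levels were 152 and 228 CPM uninjured and 122 and 79.8 at day 3 and the log2 difference was -1.02 with an adjusted p of 0.229. IIFC-like nuclei, whose share of the stroma moved most, had 15.7 and 4.20 CPM at day 3. How much of the stromal difference goes with that share was not tested.

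Grem1 (ENSMUSG00000074934, chr2:113746164-113758646, minus strand) and Nog (ENSMUSG00000048616, chr11:89300638-89302332, minus strand), the classical secreted antagonists, were barely detected. Grem1 had 19 UMIs, 9 of them in tendon-like nuclei (7.48 CPM, 3.42 to 14.2), of which 7 came from uninjured replicate 2. Nog had 4 UMIs, 2 in osteoblast-like, 1 in SSPC-like and 1 in endothelial-like nuclei. Neither passed the filter in any set of nuclei, so that no difference at day 3 was detectable at this depth. In stromal nuclei of day 5, which had more UMIs (5376797) than those of any other library, Grem1 gave 3 UMIs and Nog 1.

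**Figure D3:**
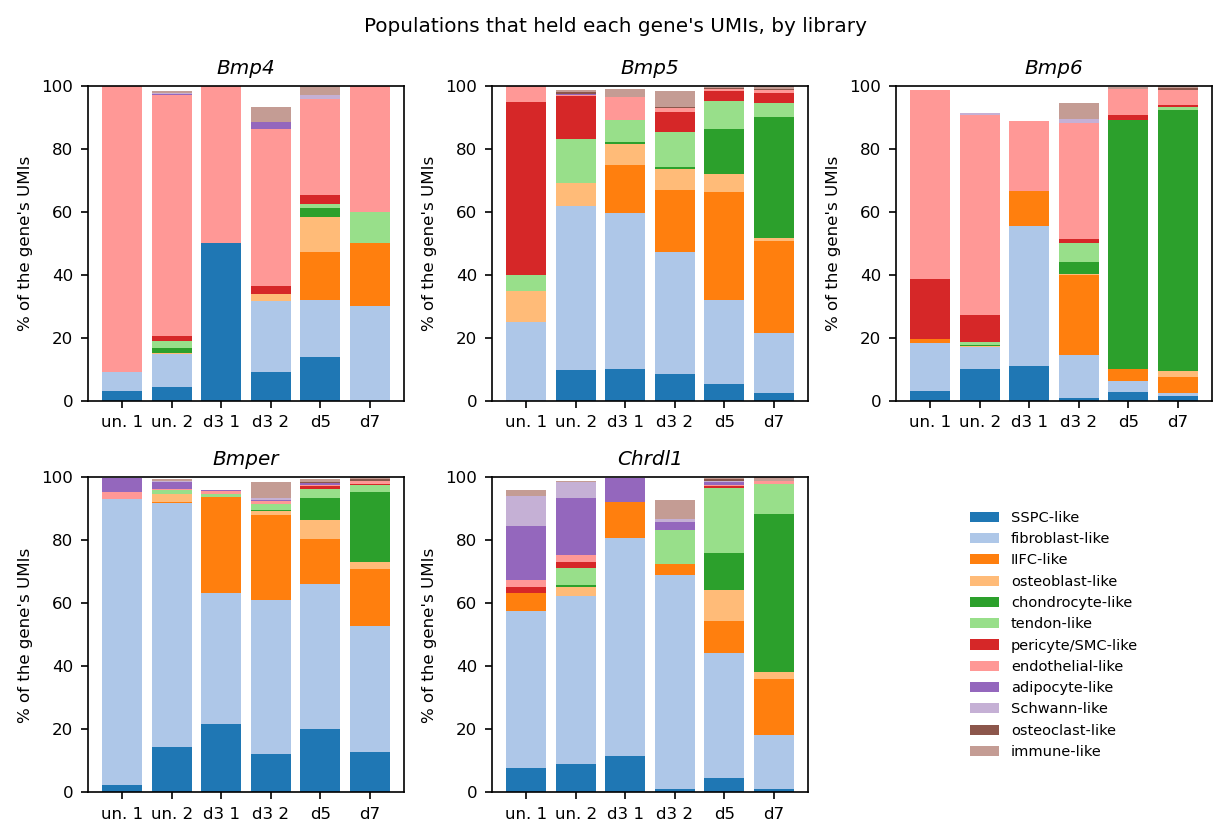
Share of each gene's UMIs (per cent, linear axis from 0) that each of 12 populations held in each library, for the 5 genes with over 400 UMIs; the gap to 100% is unnamed clusters. Bmp4 UMIs were mostly endothelial-like before fracture, Bmp6 UMIs were mostly endothelial-like before fracture (98 of 163 and 625 of 986) and mostly chondrocyte-like at day 5 (634 of 802) and day 7 (411 of 496), and fibroblast-like nuclei held the largest share of Bmper in every library, with chondrocyte-like nuclei next at day 7 (113 of 512 UMIs). Bars of day 3 replicate 1 rest on 2 Bmp4 and 18 Bmp6 UMIs.

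Over all nuclei, leaving out the myogenic-like cluster, 1096 of 12758 genes tested were called at day 3, or 8.59% (2.67% higher and 5.92% lower), and of the 7 genes of the family that passed the filter Bmp4, Bmp6 and Bmp7 were called, all 3 lower. A difference in all nuclei can come from fewer nuclei of a population or from less RNA in each, and this sum cannot tell them apart. Bmp4 had 70.5 and 69.4 CPM uninjured against 2.06 and 6.26 at day 3 (log2 fold change -3.92, SE 0.50, edgeR adjusted p = 0.0190). For Bmp6 the values were 177 and 249 CPM uninjured and 18.5 and 31.3 at day 3 (log2 fold change -3.10, SE 0.35, edgeR adjusted p = 0.0178). At days 5 and 7 Bmp4 stayed at 8.62 and 4.82 CPM, and Bmp6 stood at 96.0 and 239 CPM, the last within the range of the uninjured libraries. Bmp7 went from 10.9 and 6.56 CPM to 1.03 and 0.711 at day 3 (log2 fold change -3.47, SE 0.80, edgeR adjusted p = 0.0498), on 1 and 5 UMIs after fracture, and this call was lost under 8 of 10 alternatives.

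The mix of nuclei moved with these sums. Endothelial-like nuclei were 44.6% and 28.0% of all nuclei uninjured and 10.3% and 4.58% at day 3, and immune-like nuclei were 3.97% and 7.84% uninjured and 36.1% and 52.3% at day 3. Pericyte/SMC-like nuclei, with 144 CPM of Bmp6, were 13.2% and 6.97% uninjured and 1.06% and 0.665% at day 3. Unnamed nuclei were counted in these sums too, 19 of 478 and 85 of 918 uninjured and 33 of 377 and 272 of 1354 at day 3. Of all 429 unnamed nuclei, 365 were in a cluster led by the muscle genes Ttn and Neb. It scored 3.31 for immune and 3.25 for myogenic markers and was not removed as muscle. Within endothelial-like nuclei the fall of Bmp4 was 4.80-fold, against 15.2-fold in all nuclei. For Bmp6 the fold was 3.36, which missed the threshold, against 8.60 in all nuclei. Bmp2 (log2 fold change -1.74, adjusted p = 0.169), Chrdl1 (-2.07, 0.0794), Bmp5 (+0.60, 0.675) and Bmper (+1.10, 0.444) missed the threshold in edgeR's test over all nuclei. DESeq2 called Chrdl1 lower there (log2 fold change -1.99, adjusted p = 0.0224).

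**Figure D4:**
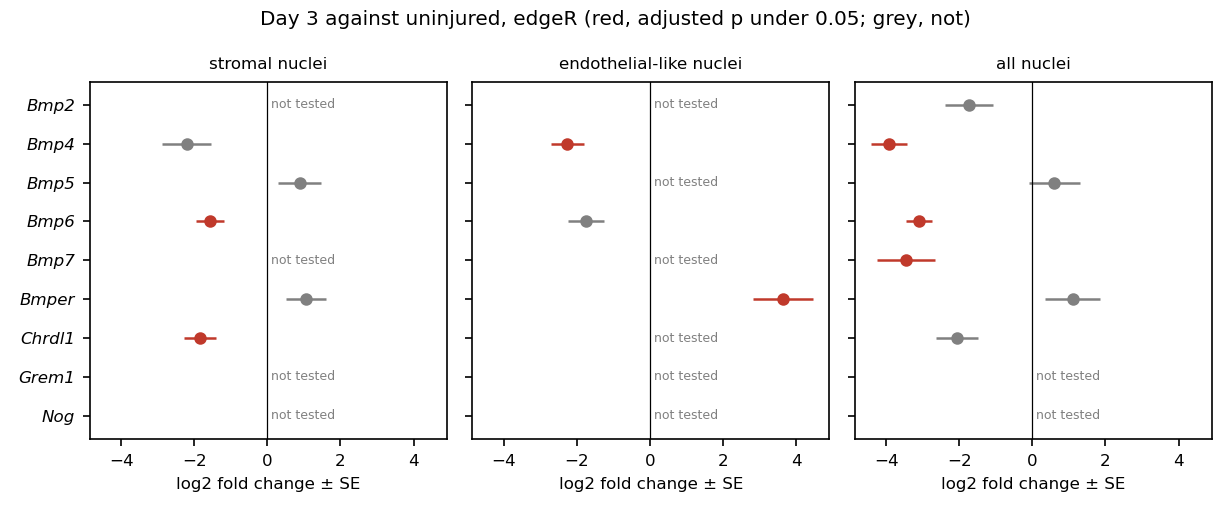
Log2 fold change of day 3 against uninjured with its standard error (bars) from edgeR, 2 libraries against 2, in stromal, endothelial-like and all nuclei; red marks an adjusted p under 0.05 and grey one above, and genes that did not pass the filter are written as not tested. Bmp4 and Bmp6 lie left of 0 in all 3 panels, and Bmper lies right of 0 in all 3 with 1 red point, in endothelial-like nuclei.

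Whether the day 3 effect differed between endothelial-like and stromal nuclei of the same libraries was tested with an interaction term in edgeR, where 360 of 8521 genes, or 4.22%, were called. Of the 5 genes that could be fitted, Bmper (log2 difference of the effects +2.96, SE 0.70, adjusted p = 0.0156) and Bmp5 (+3.84, SE 1.07, adjusted p = 0.0451) were called, both with the more positive log2 fold change in endothelial-like nuclei. Endothelial-like Bmp5 had 2.37 and 0.836 CPM uninjured (1 UMI each) and 97.4 and 14.4 at day 3 (9 and 7 UMIs). It did not pass edgeR's filter within endothelial-like nuclei, where DESeq2, run without that filter, called it higher (log2 fold change +5.11, adjusted p = 0.0341). Immune-like nuclei had 0 and 10.8 CPM of Bmp5 uninjured and 11.7 and 7.16 at day 3. The osteoblast list also rose in endothelial-like nuclei, as given for Bmper, and the part of free RNA in both interaction results was not tested. Without uninjured replicate 2 the interaction was called for neither Bmper nor Bmp5. The day 3 effects of Bmp4, Bmp6 and Chrdl1 did not pass the test of a difference (adjusted p = 0.981, 0.938 and 0.720).

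Around the 9 genes, 53 other genes of the pathway were followed, other ligands, antagonists and modulators, receptors, intracellular mediators and targets, of which 34 could be tested in stromal nuclei. Smad6 and Smad7 stand both among the mediators and among the targets. At day 3, edgeR called 1 higher and 5 lower, against 4.01% and 5.26% of all genes tested, and DESeq2 called 4 in all (1 ligand, 2 antagonists or modulators and 1 receptor). With edgeR the median log2 fold change was -0.14 against 0.05 for all genes. The lower ones included 2 ligands, Bmp3 and Gdf10. Bmp3, a ligand that opposes bone formation, had 17.5 and 35.9 CPM uninjured and 0 and 2.84 at day 3 (log2 fold change -3.79, edgeR adjusted p = 0.0242), and Gdf10 changed by -4.23 (adjusted p = 0.0366). The antagonist gene Nbl1, at -3.20 (adjusted p = 0.0170), and the BMP-binding membrane protein gene Crim1, at -1.99 (adjusted p = 0.0286), fell in the same direction as Chrdl1. The gene called higher was Bmpr1b, a type I BMP receptor, with 109 and 140 CPM uninjured against 575 and 378 at day 3 (+1.93, adjusted p = 0.0194).

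None of the 7 tested mediators or 6 tested targets was called in stromal nuclei by edgeR, and the targets Id1, Id2 and Id3 had log2 fold changes of -0.12, 0.06 and -0.30. By unadjusted p under 0.05, 2 of the mediators passed, Smad7 at +0.92 and Smurf1 at -0.71, and 1 of the targets, Smad7 again, and DESeq2 called 0 of both lists. In endothelial-like nuclei 21 of the 53 genes were tested and 0 called by edgeR, 3 with an unadjusted p under 0.05 and 0 called by DESeq2. Over all nuclei 37 were tested, 0 called higher and 2 lower, Eng (-1.57) and Crim1 (-2.21).

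**Figure D5:**
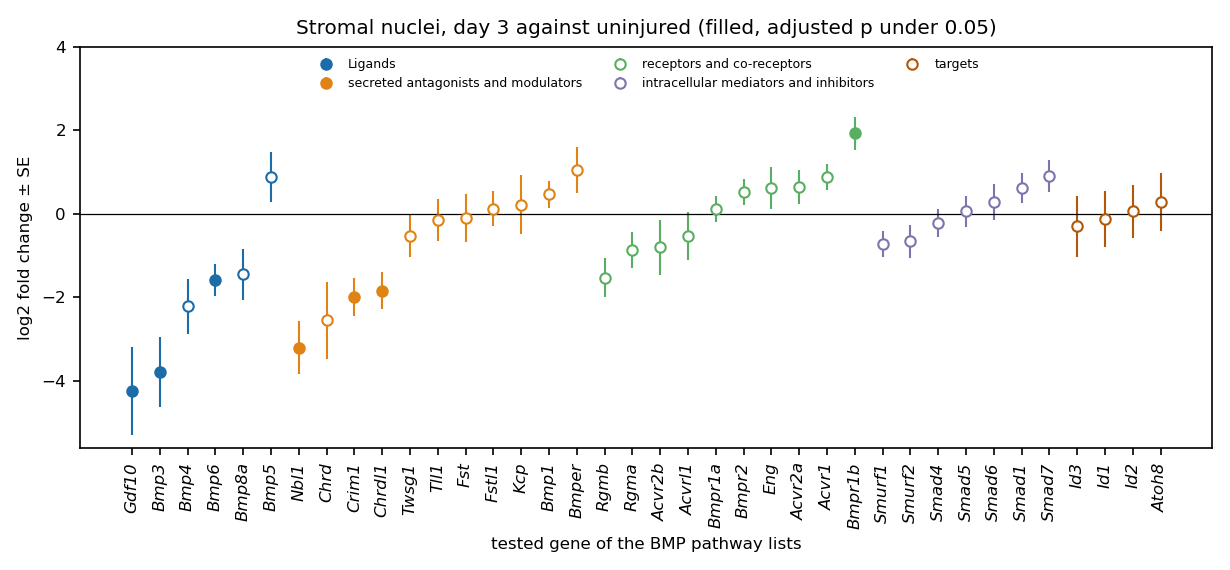
Log2 fold change of day 3 against uninjured in stromal nuclei, with its standard error, for 38 of the 39 tested genes of the pathway lists, the 5 tested genes of the family among them, ordered by role; filled points have an edgeR adjusted p under 0.05. The filled points among ligands and antagonists all lie below 0, and the single filled receptor, Bmpr1b, lies above.

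The genes whose pattern was most like each of the 9 over 44 sums of a population in a library with at least 20 nuclei, by Pearson's r of log2(CPM + 10) among 9651 genes, are given without a test, since the sums share libraries and populations. Bmp4 went with Ramp2 (r = 0.84), Npr1 (0.83) and Ly6c1 (0.82), and Bmp5 with Sec24d (0.88), Fhl2 (0.85) and Dnm3os (0.84). Bmper was closest to Clmp (0.87), Bnc2 (0.87) and Bicc1 (0.85), and Chrdl1 to Ehbp1 (0.79), Zfhx4 (0.76) and Gm9801 (0.76). Bmp6 had its closest match in Crim1 at 0.69, then Proser2 (0.63) and Ackr3 (0.62). The matches of the genes with few UMIs were Pawr (0.57), Thsd4 (0.57) and Tbx3os1 (0.54) for Bmp2, Stra6 (0.90), Myo5b (0.86) and Wnt6 (0.83) for Bmp7, Angptl7 (0.90), Trpc5 (0.87) and Chad (0.83) for Grem1, and Gm47499 (0.84), Gm12519 (0.82) and Syt6 (0.82) for Nog, the last on 4 UMIs. Among the 9 genes themselves the highest r was that of Bmp5 with Bmper, 0.67, and the lowest that of Bmp4 with Bmp5, -0.21.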

How the data were processed

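Nuclei of 6 libraries (2 uninjured, 2 day 3, 1 day 5, 1 day 7) were sequenced by the authors with 10x Genomics 3′ chemistry. The deposited files hold raw UMI counts per gene and nucleus, made with Cell Ranger with introns counted, version 6.0.0 for uninjured replicate 1, day 5 and day 7 and 7.1.0 for the others per the file headers. The submitters' processing notes and the study's methods name mm10, while a protocol in the labels names a human build. Kept nuclei had 200 to 5000 genes, mitochondrial UMIs under 2% and ribosomal UMIs under 1.5% (8073 nuclei), and clusters of muscle nuclei removed (6376). Clusters came from Seurat 5.3.0 integration (20 components, resolution 1.3), and names from marker lists. Scrublet marked 33 nuclei (0.518%), which were kept, and sums without them are an alternative.

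UMIs were summed per library and population and tested with edgeR 4.0.16 (glmQLFTest, TMM, filterByExpr, adjusted p threshold 0.05). The test was checked on simulated counts. DESeq2 1.42.0, other normalization, filters, clusterings and left-out libraries were alternatives. The interaction between endothelial-like and stromal nuclei was added after the data were seen. Replicates were numbered in accession order, and p-values measure the spread between pooled libraries. Gene positions are from GENCODE vM21 and promoters from RefSeq.

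The members and all lists were chosen with earlier results of these data known. Named genes are the 9 members in every comparison, the pathway genes called in stromal nuclei (1 of them is not reported here), and for each member the 3 genes of highest r among genes reaching 50 CPM in 1 sum. Smad7 and Smurf1, Id1, Id2 and Id3, and Eng were named outside this rule, after their values were seen.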

Additional observations from a re-analysis of the deposited data

Results flagged for a closer look

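The day 3 effect of Bmper and of Bmp5 differed between endothelial-like and stromal nuclei in edgeR's interaction test. For Bmper the log2 difference was 2.96 and for Bmp5 3.84, endothelial-like minus stromal. Bmp5 rested on 2 UMIs in the endothelial-like nuclei of both uninjured libraries and 16 UMIs at day 3, and its difference was 2.68 (adjusted p = 0.198) without day 3 replicate 1. Without day 3 replicate 2 the difference of Bmper was 2.86 (adjusted p = 0.144).

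Library values of Bmp2 lay in opposite orders in the 2 sets of nuclei, and this difference was not tested, since the gene had too few UMIs. The stromal counts were 6 and 12 UMIs uninjured and 2 and 1 at day 3, and DESeq2 did not call the stromal difference (adjusted p = 0.430). In endothelial-like nuclei its mean was 20.1 CPM at day 3, above both uninjured libraries, and in stromal nuclei both day 3 libraries were below both uninjured libraries.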

How the results depend on the processing

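Of 179 alternative values for 15 log2 fold changes at day 3 (5 genes in stromal, 3 in endothelial-like and 7 in all nuclei), 143 kept their direction and side of the threshold, 27 kept the direction and lost the call, 8 gained one and 1 reversed, Bmp5 over all nuclei, which ranged from -0.056 without uninjured replicate 1 to 2.18 without uninjured replicate 2. Uninjured replicate 1 is the only one of the 4 libraries made with the older Cell Ranger, so leaving it out is also the comparison within 1 version. DESeq2 changed which genes were called. In endothelial-like nuclei it called Bmp4, Bmp6 and Bmp5 and not Bmper, and over all nuclei it called Bmp4, Bmp6 and Chrdl1 and not Bmp7. Leaving out any 1 library, which leaves 1 in its group, lost the stromal call of Bmp6, of Chrdl1 or of both. Without uninjured replicate 2 both were lost, and the gene called was Bmp5, higher at day 3 (log2 fold change +2.95). The number of the 9 genes called in stromal nuclei went from 2 to 1 under DESeq2 and without integration, and to 0 among fibroblast-like nuclei only. In endothelial-like nuclei it went from 2 to 1 with RLE size factors, with loose limits on nuclei and without the top 6% of doublet scores, to 4 with no filter on low counts, and to 0 to 2 with 1 library left out. Over all nuclei it went from 3 to 5 with no filter and to 0 to 3 with 1 library left out, 0 being without day 3 replicate 2. The 897 genes called in stromal nuclei became 1413 with no filter, 504 among fibroblast-like nuclei only and 287 to 938 with 1 library left out, the fewest without uninjured replicate 2, with 341 without day 3 replicate 1. The difference of the Bmp6 effect between endothelial-like and stromal nuclei, -0.25, ranged from -1.35 without day 3 replicate 2 to +0.66 without uninjured replicate 2. Of 42 alternatives for the level of each gene in its highest population 36 stayed within the Poisson interval. Bmp5 in fibroblast-like nuclei was 17.4 CPM without integration, where other nuclei carry that name, and Bmper in SSPC-like nuclei was 378 CPM with loose limits. Fibroblast-like nuclei only, tendon-like nuclei counted as stromal, the doublet score limit and the alternatives of the interaction were chosen after seeing the data. No paired analysis was possible because the labels give no replicate numbers that pair uninjured with day 3 libraries. Bmper in endothelial-like nuclei gave no value without day 3 replicate 2 or without the top 6% of doublet scores, and Grem1 in tendon-like nuclei none under 3 alternatives, for lack of counts or of a cluster of that name. Depth limits Bmp2, Bmp7, Grem1 and Nog most.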

Other observations

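Outside the populations described, a cluster of 44 myogenic-like nuclei led by Pax7, the transcription factor of muscle satellite cells, had more Bmp6 than any named population of the periosteum, 1287 CPM, with 2455 CPM in uninjured replicate 1 and 1530 in uninjured replicate 2. The same cluster had 482 and 241 CPM of Bmp4 in these libraries. These nuclei were left out of every sum as muscle.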
